A study of Mus musculus with 10 samples.

Results

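The adhesion and homing receptors described here are 10 genes, taken by symbol from the 24544 genes of the deposited count table. They are the chemokine receptor gene Cxcr4, the selectin ligand gene Selplg, the hyaluronan receptor gene Cd44, the integrin subunit genes Itga4, Itga6, Itga9, Itgb1 and Itgb2, and the immunoglobulin-family genes Vcam1 and Jam3. All 10 had counts and all 10 passed the filter on low counts. The libraries were made from long-term hematopoietic stem cells of Hoxb5-mCherry mice, a strain in which a red fluorescent protein marks cells that express Hoxb5. Bone marrow came from animals 2 to 3 months old, and no treatment was named. Every sorted cell was lineage-negative, cKIT+, SCA1+, CD150+, CD48-, FLK2-, CD34- and Hoxb5+. The sort gates of the 5 NEO1+ and 5 NEO1- libraries differed only in surface neogenin-1 (NEO1), and each library held 250 to 500 cells pooled from 2 mice. The labels do not say whether libraries of both groups with the same number came from the same mice, or whether the pools shared mice. The p-values therefore refer to these libraries and not to independent mice.

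Stem cells stay in the marrow, and return to it after transplantation, through receptors that sense chemokine, roll on selectins and grip the matrix and neighbouring cells. CXCR4 senses CXCL12 made by the stroma. PSGL-1, the product of Selplg, binds P-selectin, and CD44 binds hyaluronan. Integrins are pairs of an alpha and a beta chain: ITGB1 joins ITGA4 to bind VCAM1 and fibronectin, ITGA6 to bind laminin, and ITGA9 to bind tenascin-C and osteopontin. ITGB2 is the beta chain of leukocyte integrins that bind ICAMs, and JAM-C, the product of Jam3, binds JAM-B on niche cells.

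The integrin members share short motifs in the tail that lies inside the cell, which the choice of members did not use. Alpha chains carry GFF, then K or R, then R, next to the membrane. Beta chains carry NP, any residue, then Y or F, where talin and kindlin bind. The coding bases of these motifs (capitals, with 9 flanking bases on each side in lower case) are shown because they set the alpha and the beta members side by side; they were read 5′ to 3′ from the longest open reading frame of GENCODE M21 transcripts on GRCm38.
Itga4: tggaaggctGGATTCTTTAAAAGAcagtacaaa
Itga6: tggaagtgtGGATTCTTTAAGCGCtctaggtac
Itga9: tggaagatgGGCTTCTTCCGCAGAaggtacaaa
Itgb1, first motif: acgggtgaaAATCCTATTTACaagagtgcc
Itgb1, second motif: actgtggtcAATCCGAAGTATgagggaaaa
Itgb2, first motif: aacaatgacAACCCCCTCTTCaagagtgct
Itgb2, second motif: acggtcatgAACCCCAAGTTTgctgaaagc
Of the 15 alpha motif bases, Itga4 and Itga6 shared 12, Itga4 and Itga9 shared 10, and Itga6 and Itga9 shared 8. Both beta chains had 2 such motifs, and Itgb2 had F where Itgb1 had Y in each.

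Library totals ran from 21181669 to 38945806 counts, and between 11477 and 13808 genes had a count. Genes with a count averaged 13146 with NEO1 and 12142 without (exact permutation p 0.0397, adjusted 0.198 over 15 library measures). Rn45s alone made up 27.9% to 42.4% of a library, averaging 32.3% with NEO1 and 38.4% without (exact permutation p 0.0794, adjusted 0.298). Neither difference passed after adjustment, and their part in the receptor levels and spread was not tested. Levels are given as CPM, counts scaled to the size of the library, with that size corrected by TMM. Means are given ± SD over the 5 libraries of a group (n = 5 each). A count of 0 allowed a level of up to 3 counts, or 0.0699 to 0.144 CPM depending on the library. The reads carried no molecular identifiers, so this floor covers counting error only. The Neo1 transcript, which checks the sort, spanned 48.6 to 64.8 CPM in 4 NEO1+ libraries, was at 12.5 CPM in NEO1+ library 4, and spanned 4.56 to 18.9 CPM among NEO1- libraries. The 11 stem cell markers summed to 1973 to 2442 CPM. Of the 7 stromal markers the sum was at most 18.3 CPM, with Lepr and Col3a1 at 0 everywhere, and Col1a2 and Pdgfrb each at up to 12.1 CPM. It was at most 28.5 CPM for 7 macrophage, 63.3 CPM for 5 megakaryocyte, 60.9 CPM for 5 B cell and 2.94 CPM for 5 T cell markers. Neutrophil markers (7 genes) ran from 3.25 to 4069 CPM and erythroid markers (6 genes) from 3.33 to 283 CPM; both were uneven within each group.

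No receptor passed the test between NEO1+ and NEO1- cells. By edgeR's quasi-likelihood test with Benjamini-Hochberg adjustment over 12203 genes, 0 of the 10 had an adjusted p under 0.05, and neither did any other gene (0%). Jam3 alone had an unadjusted p under 0.05, so 1 of 10 did, beside 806 genes or 6.60% of all genes tested. Of the receptors, 6 had a log2 fold change (NEO1+ over NEO1-) above 0 and 4 below, beside 51.0% above 0 for all genes. Their median was 0.07, and that of all genes 0.01. Without regard to sign the median was 0.23 for the receptors and 0.27 for all genes. The range of values overlapped between the groups for all 10, whereas 303 genes (2.48%) had groups that did not overlap. DESeq2 called 146 of the 14606 genes it tested (1%), and 0 of the 10.

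**Figure D1:**
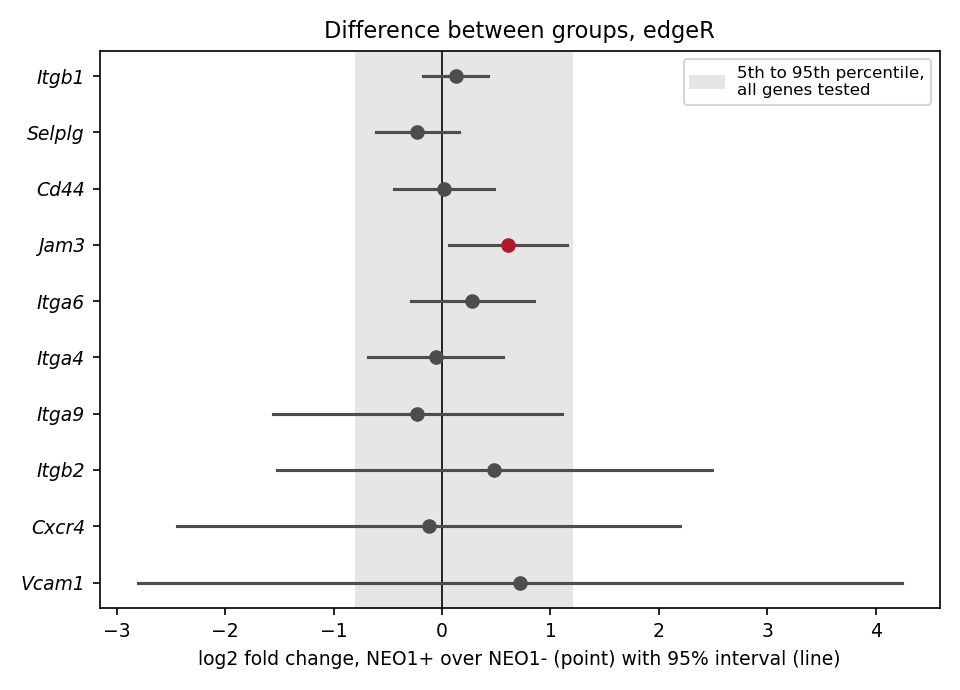
Log2 fold change of each receptor, NEO1+ over NEO1- (x axis), with points for the edgeR estimate and lines for the 95% interval; the red point has an unadjusted p under 0.05. The shaded band spans the 5th to 95th percentile of all 12203 genes (-0.80 to 1.20), and all 10 estimates lie inside it.

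Cxcr4, whose protein holds stem cells near CXCL12-producing stroma, had the lowest mean level per length of the 10. The gene lies at chr1:128588199-128592293 (GRCm38, minus strand) and had only 13 to 48 counts a library. NEO1+ libraries 1 to 5 held 1.73, 0.333, 0.932, 1.46 and 0.726 CPM of Cxcr4. The NEO1- libraries in the same order held 1.11, 1.64, 0.881, 1.216 and 0.794 CPM. The lowest and the highest value both belonged to NEO1+ libraries, and the groups overlapped. Its log2 fold change was -0.12 (SE 1.08), with a 95% interval from -2.45 to 2.20, which takes in changes from 0.183-fold to 4.59-fold (edgeR adjusted p 0.9997).

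Selplg and Cd44 were plentiful, and their groups overlapped. Selplg (chr5:113818536-113832644, minus strand) had NEO1+ values of 100.03, 79.7, 68.1, 95.8 and 71.9 CPM and NEO1- values of 103.6, 89.7, 124, 68.7 and 100.23 CPM. NEO1- libraries 1, 3 and 5 stood above every NEO1+ library, and NEO1- library 4 was among the lowest. The means were 83.1 ± 14.2 and 97.3 ± 20.3 CPM. For Selplg the log2 fold change was -0.23 (SE 0.18; 95% interval -0.61 to 0.16; edgeR adjusted p 0.921).

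For Cd44 (chr2:102811141-102901665, minus strand) the NEO1+ values were 70.7, 109.7, 77.4, 89.1 and 69.2 CPM. The NEO1- values were 98.4, 52.6, 82.2, 66.2 and 112 CPM. NEO1- cells gave both the lowest and the highest library, and the means, 83.2 ± 16.8 and 82.3 ± 23.9 CPM, were nearly equal. The log2 fold change was 0.02 (SE 0.21), and its 95% interval, -0.44 to 0.48, reaches at most 1.39-fold higher in NEO1+ and 0.735-fold of the NEO1- level at the other end (edgeR adjusted p 0.9997).

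**Figure D2:**
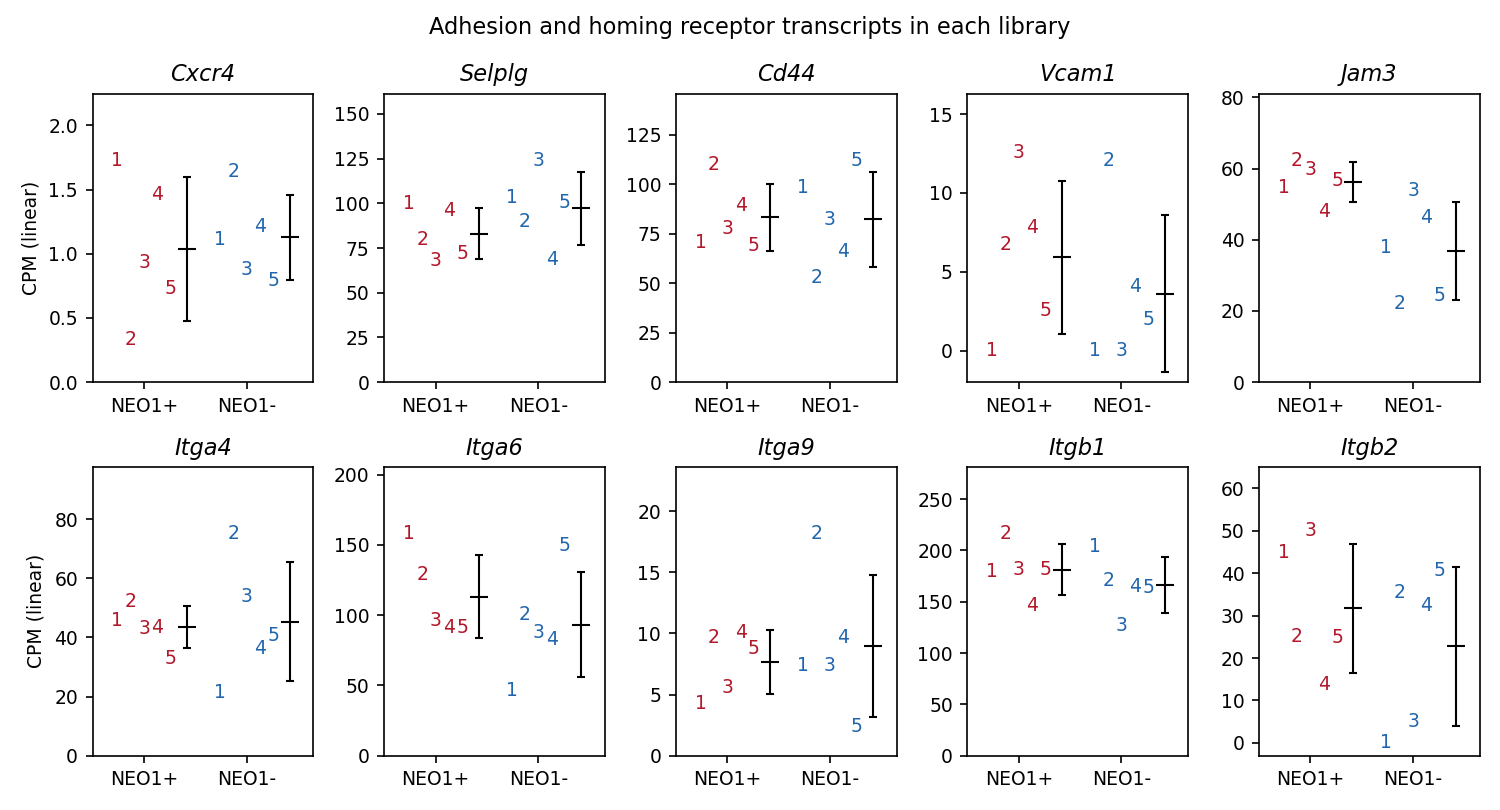
CPM (y axis, linear, a scale of its own for each gene) of the 10 receptors in each library. Numerals are the library numbers within NEO1+ (red) and NEO1- (blue), and bars give the mean and SD of 5 libraries; for Jam3, 4 of the 5 NEO1+ libraries lie above all NEO1- libraries, and the groups overlap for every gene.

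Among the integrins, Itgb1, the common beta chain, was the steadiest receptor of all 10. It lies at chr8:128685654-128733200 (plus strand). Its level in NEO1+ libraries 1 to 5 was 179, 216, 182, 146 and 182 CPM; NEO1- libraries had 204, 170.2, 127, 165 and 164 CPM. The highest was 1.71 times the lowest over all 10 libraries. The log2 fold change of 0.13 (SE 0.14) had a 95% interval from -0.17 to 0.43, or 0.887-fold to 1.34-fold, the narrowest of the set (edgeR adjusted p 0.980).

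Itga4, the alpha chain for VCAM1 and fibronectin, differed more within NEO1- cells than between groups. The gene (chr2:79255426-79333123, plus strand) had NEO1+ values of 45.8, 52.3, 43.2, 43.5 and 32.8 CPM and NEO1- values of 21.3, 75.1, 53.8, 36.2 and 40.5 CPM. NEO1- libraries 1 and 2 were the lowest and the highest of all 10. The fold change, in log2, was -0.06 (SE 0.29; 95% interval -0.69 to 0.57; edgeR adjusted p 0.998).

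Itga6, the laminin receptor chain (chr2:71745616-71858416, plus strand), gave 158, 129, 96.4, 91.4 and 91.2 CPM with NEO1, and without it 46.4, 100.3, 87.9, 82.4 and 149.6 CPM. NEO1+ libraries 3 to 5 lay within 6 CPM of each other, and NEO1- library 1 stood lowest. The log2 fold change was 0.28 (SE 0.26; 95% interval -0.29 to 0.85; edgeR adjusted p 0.957). Without NEO1- library 5 it was 0.52, and without NEO1- library 1 it was 0.11; neither passed.

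Itga9, which binds tenascin-C and osteopontin, was low. It spans chr9:118606690-118901003 (plus strand) and had 71 to 388 counts a library. The NEO1+ libraries held 4.27, 9.70, 5.55, 10.1 and 8.77 CPM, and the NEO1- libraries 7.35, 18.2, 7.35, 9.70 and 2.35 CPM. As with Itga4, NEO1- library 2 was the highest. The log2 fold change of Itga9 was -0.23 (SE 0.62; 95% interval -1.56 to 1.11; edgeR adjusted p 0.998). It was 0.20 without NEO1- library 2, and 0.11 by another test, limma-voom, with all libraries kept. The direction thus depended on that library and on the test used.

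Itgb2, the beta chain of leukocyte integrins, was present in some libraries and nearly missing from others. It lies at chr10:77530252-77565708 (plus strand). NEO1+ libraries 1 to 5 were at 44.8, 25.1, 50.02, 13.7 and 24.9 CPM. In the NEO1- group, library 1 had 0 counts (an upper limit of 0.0955 CPM), library 3 was at 5.15 CPM, and libraries 2, 4 and 5 were at 35.5, 32.3 and 40.7 CPM. NEO1+ libraries 1 and 3 were thus the highest of all, and NEO1- libraries 1 and 3 lay below every NEO1+ library. The log2 fold change was 0.48 (SE 0.93; 95% interval -1.53 to 2.49; edgeR adjusted p 0.998), and 0.16 without NEO1- library 1. Here, as in any bulk sample, fewer cells with a transcript and less RNA per cell cannot be told apart.

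Neutrophil markers are set beside Itgb2 because mature myeloid cells carry ITGB2. Their summed level in NEO1+ libraries 1 to 5 was 2117, 11.2, 4069, 385 and 146 CPM. In the NEO1- libraries it was 3.25, 52.1, 2261, 972 and 607 CPM. The sum was high in the 2 NEO1+ libraries with the most Itgb2 (1 and 3), and also in NEO1- library 3, which had little Itgb2. In that library the sum was nearly all Elane (654 CPM) and Mpo (1590 CPM), genes of early granule formation, with Ngp at 4.50 CPM, Camp at 2.95 CPM and Ltf at 0. The leukocyte alpha chain Itgam, named after its values were seen, was at 12.1, 20.8 and 6.58 CPM in NEO1+ libraries 1 and 3 and NEO1- library 5, and at 0.973 CPM or less in the other 7. Those 3 libraries also held the most Ngp, a granule gene of maturing neutrophils, at 706, 1233 and 318 CPM. Itgb2 was also present where these genes were low or absent. NEO1- library 2 held 35.5 CPM of Itgb2, with Itgam at 0, Ngp at 16.8 CPM and a neutrophil sum of 52.1 CPM. NEO1+ library 2 held 25.1 CPM of Itgb2, with Itgam and Ngp at 0 and a neutrophil sum of 11.2 CPM. In libraries NEO1+ 3 and NEO1- 3 the neutrophil sum was the highest. Without both, the log2 fold change of Itgb2 was -0.00064 and that of Vcam1 -0.078. NEO1+ library 3 was also the highest of all libraries in both genes. NEO1- library 3 was at 5.15 CPM for Itgb2 and had 0 counts of Vcam1. Leaving out these libraries therefore lowers both values whatever their neutrophil sum. The part of mature myeloid cells in the Itgb2 level was not tested.

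Vcam1, known on stroma and endothelium as the ITGA4 ligand and also found on stem cells, was at or near the floor in several libraries. The gene is at chr3:116109949-116129688 (minus strand). It had 0 counts in NEO1+ library 1, where the upper limit is 0.144 CPM, and 6.70, 12.5, 7.82 and 2.55 CPM in NEO1+ libraries 2 to 5. It had 0 counts in NEO1- libraries 1 and 3 as well, with 12.03, 4.04 and 1.98 CPM in libraries 2, 4 and 5. Both groups held libraries at 0 and libraries above 12 CPM. The fold change of Vcam1, in log2, was 0.72 (SE 1.64), with a 95% interval of -2.81 to 4.24, the widest of the set (edgeR adjusted p 0.998). Without NEO1+ library 3 it was 0.24, and without NEO1- library 2 it was 1.97. Macrophages also carry VCAM1; the macrophage marker sum spanned 6.36 to 24.1 CPM with NEO1 and 13.02 to 28.5 CPM in the other group, with Marco at 0 in all 10 and Adgre1 at 0 in 8 of 10. Csf1r was at 0 in 6 of 10. Cd68, C1qa, C1qb and C1qc were counted in most libraries, Cd68 at up to 11.6 CPM and C1qc at up to 10.4 CPM. The part of the macrophage markers in the Vcam1 level was not tested.

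Of the 10 receptors, Jam3 showed the clearest separation. The gene, at chr9:27097384-27155421 (minus strand), encodes JAM-C. NEO1+ libraries were at 54.8, 62.4, 59.7, 47.8 and 56.7 CPM. NEO1- libraries were at 37.9, 22.2, 53.99, 46.2 and 24.3 CPM. Of the 5 NEO1+ libraries, 4 stood above every NEO1- library, and NEO1- library 3 reached into the NEO1+ range. The means were 56.3 ± 5.54 and 36.9 ± 13.7 CPM. This gave a log2 fold change of 0.61 (SE 0.25; 95% interval 0.07 to 1.15), a 1.52-fold higher level. Its unadjusted edgeR p was 0.0308, and its adjusted p, 0.687, did not pass; it ranked 545 of 12203 genes by p.

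The direction of Jam3 was the same in all 19 alternatives, from 0.47 to 0.78, and its unadjusted p was under 0.05 in 14. The unadjusted p was lowest without NEO1- library 3, at 0.00667 by edgeR (adjusted 0.412). The lowest adjusted p was 0.0958, in DESeq2 with the replicate block, and did not pass. The unadjusted edgeR p rose to 0.0709 without NEO1- library 5 and to 0.0661 without NEO1- library 2, the lowest 2 libraries of that group. It was 0.0627, 0.0584 and 0.0508 without NEO1+ libraries 2, 3 and 5. Without NEO1+ library 4, in which Neo1 was low and Jam3 was the lowest of its group, the log2 fold change was 0.66. Endothelial cells also carry JAM-C. The sum of 6 endothelial markers ran from 58.3 to 98.7 CPM with NEO1 and from 34.8 to 67.4 CPM without (exact two-sided permutation p 0.0238, adjusted 0.179 over 15 library measures), with Cdh5, a defining endothelial gene, at 0 counts in all 10. The sum held Emcn, at 24.8 to 54.3 CPM, Cldn5, at up to 33.4 CPM, and Kdr, at up to 18.2 CPM. The part of these markers in the Jam3 difference was not tested. An antisense gene, Gm48796, overlaps 30.3% of the exon length of Jam3; strand use in counting is not stated, so its reads cannot be told apart from those of Jam3.

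Set side by side per length, the receptors covered an 81.1-fold range of level. Mean CPM per kb of exon (exon length from GENCODE M21) was 48.6 for Selplg, 45.5 for Itgb1, 24.0 for Jam3, 23.7 for Itga6, 14.6 for Cd44, 9.16 for Itgb2, 4.55 for Itga4, 1.17 for Itga9, 0.957 for Vcam1 and 0.60 for Cxcr4. The median of the 12009 tested genes with a length was 7.51. Selplg stood at the 90.7th percentile of those genes, and Cxcr4 at the 6.01st. Neighbours in this order were compared as log2 ratios per kb (0.1 CPM per kb added to both) over 10 libraries, and libraries were counted with nothing added. Itgb1 exceeded Jam3 by 0.98 ± 0.55 (SD) and in 10 of 10 libraries. Itga6 exceeded Cd44 by 0.65 ± 0.59 in 9 of 10, and Itga4 exceeded Itga9 by 1.96 ± 0.72 in 10 of 10. The other neighbours differed by less than their spread: Selplg and Itgb1 by 0.09 ± 0.44, Jam3 and Itga6 by 0.02 ± 0.73, Cd44 and Itgb2 by 1.36 ± 2.39, Itgb2 and Itga4 by 0.33 ± 2.00, and Itga9 and Vcam1 by 0.97 ± 1.74. Vcam1 exceeded Cxcr4 in 6 of 10 libraries, had 0 counts in 3, and gave a mean log2 ratio of -0.18 ± 2.07.

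**Figure D3:**
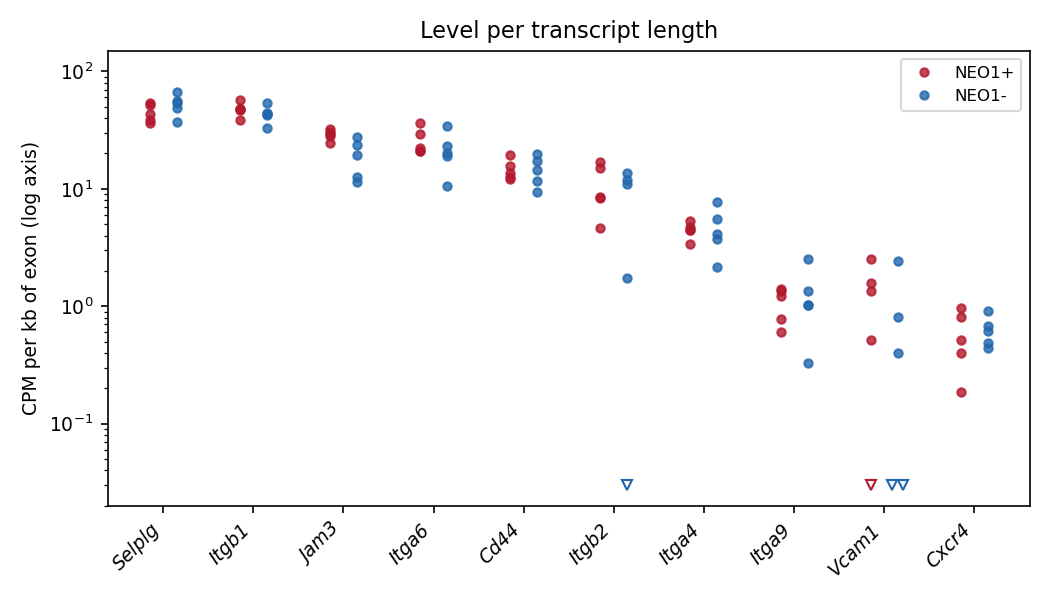
CPM per kb of exon (y axis, log) in each NEO1+ (red) and NEO1- (blue) library, with receptors in order of their mean level. Open triangles below the axis range of the other points mark libraries with 0 counts: 1 NEO1- library for Itgb2, and 1 NEO1+ and 2 NEO1- libraries for Vcam1.

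Itgb1 exceeded its 3 alpha partners among the receptors. Per kb, Itga6 made 0.549 ± 0.132 of the Itgb1 level with NEO1 and 0.512 ± 0.221 without. For Itga4 the ratio was 0.0947 ± 0.0163 and 0.112 ± 0.056, and for Itga9 it was 0.0231 ± 0.0093 and 0.0293 ± 0.0183. The sum of these 3 alpha chains was 0.666 ± 0.137 and 0.653 ± 0.254 of Itgb1. It never exceeded Itgb1: the range was 0.259 in NEO1- library 1 to 0.903 in NEO1- library 5. The sum left out other alpha chains that pair with ITGB1, among them Itga5, at a mean of 12.7 CPM per kb. It therefore does not show whether Itgb1 exceeded all its partners together. The 2 groups overlapped in each ratio.

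Receptor levels were more uneven among NEO1- than among NEO1+ libraries. The SD of log2 CPM (prior count 2) was larger in NEO1- for 9 of 10, the exception being Cxcr4 (0.86 in NEO1+ and 0.39 in NEO1-). For Jam3 it was 0.15 in NEO1+ and 0.56 in NEO1-, for Itga4 0.24 and 0.68, and for Itga9 0.54 and 1.06. Itgb2 had 0.75 and 3.97, with 1 NEO1- library at 0 counts. Over all genes tested, 9555 (78.3%) had the larger SD in NEO1-. The median SD was 0.32 and 0.59 for the receptors and 0.40 and 0.64 for all genes. Most genes tested thus had the same direction of spread as the receptors.

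**Figure D4:**
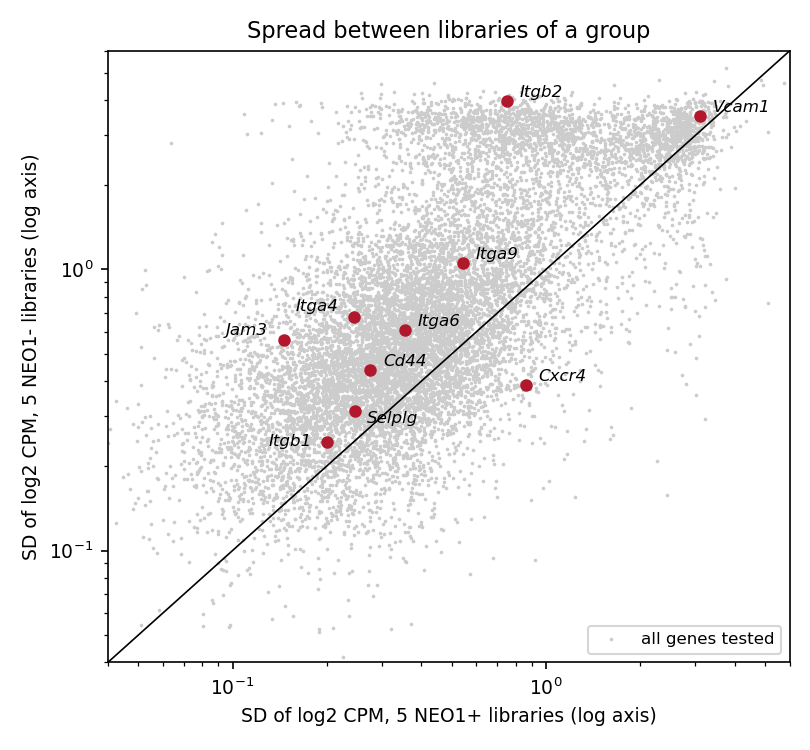
SD of log2 CPM over the 5 NEO1+ libraries (x axis, log) and over the 5 NEO1- libraries (y axis, log), for all genes tested (grey) and the 10 receptors (red). The line marks equal SD; 9 receptors lie above it and Cxcr4 lies below.

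Related genes were read from 6 lists of 120 genes in all, 92 of them tested, chosen by role and with earlier results of these data known. None had an edgeR adjusted p under 0.05; 3 higher in NEO1+ and 5 lower had an unadjusted p under 0.05, beside 6.60% of all genes, with a median log2 fold change of 0.05. All 26 integrin subunit genes were in the table. Of these, 16 were tested, 10 had counts in every library and 3 (Itga7, Itga8 and Itga11) had 0 counts in all.

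Of the 11 other integrin subunits tested, 7 were above 0 and 4 below (median 0.23). Itga2b, the alpha chain of the fibrinogen receptor on platelets, averaged 55.1 ± 16.02 CPM among NEO1+ and 36.9 ± 10.2 CPM among NEO1- cells. Its log2 fold change was 0.58 (SE 0.27; unadjusted edgeR p 0.0476, adjusted 0.747). Its partner Itgb3 averaged 28.02 ± 9.23 and 21.4 ± 7.27 CPM (0.39 on the log2 scale, SE 0.33). Itga5, another fibronectin receptor chain that pairs with ITGB1, was at 56.4 ± 6.47 and 54.96 ± 18.5 CPM. Itgb7, the other beta chain that ITGA4 can join, was at 20.02 ± 14.8 and 20.7 ± 12.7 CPM. Itgal, which pairs with ITGB2, had 0 counts in 4 libraries and at most 3.56 CPM.

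Integrin activators and adaptors gave 6 above 0 and 14 below of 20 tested (median -0.08). Tln1, which encodes talin, was at 377 ± 54.8 CPM with NEO1 and 377 ± 71.2 CPM without. Fermt3, which encodes the kindlin of blood cells, was at 304 ± 26.9 and 323 ± 24.1 CPM. Skap2, an adaptor, had a log2 fold change of -0.44 (SE 0.16; unadjusted edgeR p 0.0143, adjusted 0.586), and Sharpin, an inhibitor of integrin activation, one of -0.43 (SE 0.19; 0.0354 and 0.705). Both had overlapping groups.

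Genes around CXCR4 gave 9 above and 9 below 0 of 18 tested (median -0.01). Cxcl12, the ligand, which stroma makes, had 0 counts in 3 libraries and was at 29.3 CPM in NEO1+ library 3 and 11.8 CPM in NEO1- library 2, the highest of each group. Ackr3, the other CXCL12 receptor, had at most 8 counts and 0 in 8 of 10 libraries. Rgs1, which dampens chemokine receptor signals, was at 97.4 ± 39.04 CPM with NEO1 and 149.7 ± 31.2 CPM without. The groups overlapped, through NEO1+ library 4 at 165.7 CPM (log2 fold change -0.62, SE 0.23; unadjusted edgeR p 0.0201, adjusted 0.607).

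Ligands and counter-receptors gave 9 above and 2 below 0 of 11 tested (median 0.38). Jam2, whose product binds JAM-C, was at 27.7 ± 10.5 CPM with NEO1 and 26.3 ± 16.3 CPM without. Icam1, a ligand of ITGB2 integrins, was at 61.6 ± 5.59 and 57.0 ± 21.2 CPM. Fn1 and Spp1, the fibronectin and osteopontin genes, each had 0 counts in 6 libraries and were not tested. Selp, which encodes P-selectin, the receptor for PSGL-1, was the only gene of all 6 lists whose groups did not overlap, with a range of 26.3 to 43.8 CPM among NEO1+ and 4.41 to 13.2 CPM among NEO1- cells (log2 fold change 2.10, SE 0.37; edgeR adjusted p 0.140). Over all genes tested, 2.48% had groups that did not overlap.

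Enzymes and scaffolds of selectin ligands, which add the sugars and sulfate that PSGL-1 needs, gave 5 above and 8 below 0 of 13 tested (median -0.11), with 0 at an unadjusted p under 0.05. Other adhesion molecules gave 13 above and 6 below of 19 tested (median 0.13). Ctnnb1, the beta-catenin gene, had a log2 fold change of 0.33 (SE 0.11; unadjusted edgeR p 0.00934, adjusted 0.548). The tetraspanin gene Cd63 had -0.22 (SE 0.09; 0.0340 and 0.705), and the sialomucin gene Cd164 had -0.30 (SE 0.13; 0.0366 and 0.709). All 3 genes had overlapping groups.

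**Figure D5:**
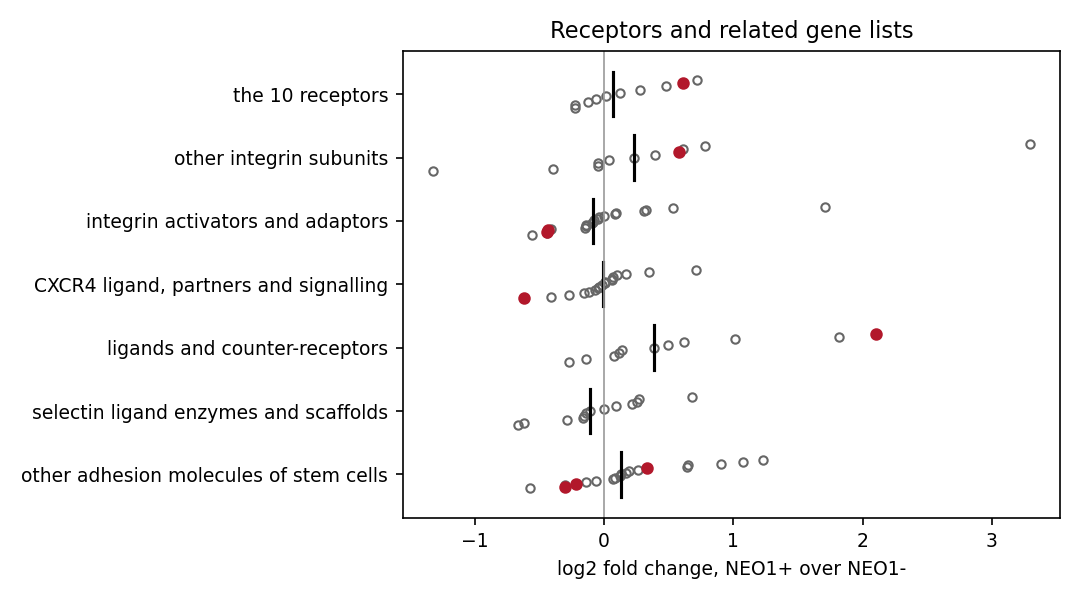
Log2 fold change, NEO1+ over NEO1- (x axis), of the 10 receptors and of the tested genes of 6 related lists. Each circle is a gene, filled red where the unadjusted edgeR p is under 0.05, and black bars are list medians, which run from -0.11 to 0.38.

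For the 3 receptors of smallest p, the genes with the most similar profile were taken as those with the smallest mean absolute difference of centred log2 CPM over 10 libraries. Those nearest to Jam3 were Stk10 (0.17), Rfc1 (0.18) and Mafk (0.18), where Jam3 itself had an SD of 0.53 over the 10 libraries. Nearest to Selplg were Pwp1 (0.10), Etv6 (0.13) and Ccs (0.13). Nearest to Itga6 were Cyld (0.12), Psmd10 (0.13) and Bcl7a (0.17). None of these 9 genes was another receptor or in a related list.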

How the data were processed

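RNA of 10 libraries was amplified by oligo-dT priming and template switching (Smart-seq2, 18 PCR cycles) and tagmented from 40 ng of cDNA, per the labels' protocols. The authors deposited raw counts per gene symbol and a table of log2 values. Per the file headers and names, the deposited log2 values rest on DESeq2 size factors, and each equalled log2 of the count over 1 constant per library, plus 1. The submitters' processing notes name mm10, STAR 2.4 and DESeq2 1.22.2; the counting tool and annotation are not given in the sources used here. Counts were tested in R 4.3.3 by edgeR 4.0.16, after filterByExpr and TMM scaling, with a robust quasi-likelihood fit over all genes, Benjamini-Hochberg adjustment and a threshold of 0.05. A standard error is the size of the log2 fold change divided by the root of the F statistic, and 95% intervals use the test's degrees of freedom. The fit shares information on spread over all genes. Its p-values, standard errors and intervals therefore do not rest on a gene's own spread between libraries alone. The code was checked on simulated data. Alternatives used DESeq2 1.42.0, limma 3.58.1, other scaling, no filter, no Rn45s, a replicate block and each library left out. Leaving out the 2 libraries highest in neutrophil markers was chosen after seeing the data.

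The receptors, lists and tests were chosen with earlier results of these data known. The receptors, 13 related genes and up to 8 further related genes of smallest p under 0.05 were named by rule. Libraries of a group differed beyond sampling noise (chi-square of at least 86.7 per degree of freedom). Positions and exon lengths come from GENCODE M21 (GRCm38, the assembly of mm10), and 1 listed gene, Adrbk1, was matched as Grk2 through RefSeq synonyms.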

Additional observations from a re-analysis of the deposited data

Results flagged for a closer look

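Among the transcripts and library measures given above, 9 values lay far from the rest of their group of 5 libraries. A chance rate of about 4.4 of the 88 groups examined holds only where values vary continuously. It does not hold for groups whose remaining libraries all lacked counts, so 9 and 4.4 cannot be compared. Neo1 stood at 3.65 log2 CPM in NEO1+ library 4, and the remaining NEO1+ libraries lay between 5.61 and 6.02.

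For 4 genes the other 4 libraries of the group all had 0 counts, and only 1 library had any. Ackr3 reached -1.16 log2 CPM in NEO1+ library 1 and -2.22 in NEO1- library 4, Fn1 1.25 and Spp1 -0.23 in NEO1- library 4, and Itgam 2.73 in NEO1- library 5, where a library without counts has -3.98.

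On the scale of log2 of the summed CPM plus 1, megakaryocyte markers were at 4.598 in NEO1- library 4, below 5.73 to 6.01 in the others. B cell markers were at 5.68 in NEO1+ library 2, above 5.14 to 5.25, and T cell markers at 1.41 in NEO1+ library 3, above 0 to 0.27. None of the 10 receptors had such a library.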

How the results depend on the processing

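Of 190 values (10 receptors, 19 alternatives), 0 passed an adjusted p of 0.05 and 172 kept their direction; Itga6, Itgb1, Selplg and Jam3 kept it in all. The 18 reversals were at most 0.20 in size. For Itga4 the log2 fold change was 0.032 in DESeq2 and 0.037 in edgeR with the replicate block, 0.040 in limma-trend on the deposited values and 0.11 in limma-voom, where Itga9 was 0.11. Without the 2 libraries highest in neutrophil markers Itga4 was 0.012, Itgb2 -0.00064 and Vcam1 -0.078. Leaving out 1 library gave -0.39 to 0.10 for Cxcr4, -0.11 to 0.15 for Cd44, -0.24 to 0.20 for Itga4 and -0.47 to 0.20 for Itga9. The number of receptors at an unadjusted p under 0.05 was 0 or 1 with a library left out. Itgb2 reached 2.64 and Vcam1 2.67 in limma-voom, neither passing; the cause was not tested.

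Over all genes the adjusted count, 0, became 146 in DESeq2, 727 in DESeq2 with the replicate block, 2 in edgeR without the low-count filter, 1 in limma-trend, 2 in limma-voom, and 0 to 1 with a library left out; edgeR with the replicate block gave 0. The numbers were not taken as pairs because the labels do not state pairing. Same-numbered libraries correlated at 0.00 to 0.04 in their deviations from group means, beside a mean of -0.004 for other pairs. Of the 10, 4 correlated best with their own number, and these values do not settle whether the libraries were paired. No scaling moved the median of all genes by more than 0.06. Intervals were widest for Vcam1, Cxcr4 and Itgb2. Cxcr4 had 13 to 48 counts a library, and Vcam1 and Itgb2 had 3 and 1 libraries at 0. The part of low or absent counts in the width of the intervals was not tested.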
